A study of Mus musculus with 16 samples.

Results

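Livers of mice fed a high-fat and a ketogenic diet by turns were compared with livers of mice kept on the high-fat diet throughout. The comparison rests on 8 of the 16 RNA sequencing libraries of the study, 4 per group. It covers every gene that reached 1 TPM (a gene's share of all transcripts after correction for length, scaled to the same total in every library) in at least 4 of those 8 libraries, which was met by 11108 of 22612 genes. The remaining 11504 genes (50.9%) were not tested. All mice were male C57BL/6, bought at 7 weeks of age, and livers were taken after 16 weeks of diet and a night of fasting. The high-fat group received 58% of its energy as fat. The ketogenic-alternating group received that same diet and a diet with 90.5% of energy as fat in turns of 2 weeks. The chow-alternating group took turns between the high-fat diet and chow with 11% of energy as fat. It places the values and was also set against the ketogenic-alternating group in a second test. The chow group places the values and otherwise enters only an alternative fit of all 16 libraries. Each group held 6 mice and 4 libraries, and the labels do not say that each library came from its own mouse, so p-values measure the spread between these libraries. They do not say which diet was fed last before collection either.

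The tissue label was checked against 12 hepatocyte markers, whose summed level was 103000 to 150000 TPM across the 8 libraries. The depth of sequencing is unknown, because TPM keeps none. High-fat replicates 1 and 2 stood apart from the other 6 libraries, with 34.27% and 33.52% of their total in the 20 highest genes against 27.08 to 30.12% elsewhere, and with 11.11% and 11.12% in mitochondrial genes against 8.61 to 10.24%. Ketogenic-alternating replicate 1 stood apart in another way. Its summed level of markers of recruited and lipid-associated macrophages was 547 TPM, against 107 to 153 TPM in the other 3 of its group and 119 to 216 TPM in the high-fat libraries, and that of cholangiocyte markers was 926 TPM, against 398 to 556 and 358 to 630 TPM. Gpnmb, a gene of lipid-associated macrophages, was at 14.6 TPM in it and at most 0.342 TPM in the other 3. Gene levels varied more among the high-fat libraries than among the ketogenic-alternating libraries: the median SD on the log2 scale was 0.321 against 0.204, and the high-fat SD was the larger of the 2 for 74.7% of genes. In whole liver, fewer cells of a type and less RNA per cell cannot be told apart.

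A ketogenic diet supplies little carbohydrate, so the liver burns fatty acids and makes ketone bodies from the acetyl-CoA they yield. Carbohydrate and insulin drive the opposite programme, in which acetyl-CoA carboxylase makes malonyl-CoA, fatty acid synthase builds saturated fatty acids from it, and desaturases add double bonds. Malonyl-CoA also blocks the entry of fatty acids into mitochondria through carnitine palmitoyltransferase. The nuclear receptor PPAR alpha, which fatty acids activate, switches on genes of fat oxidation during fasting and fat feeding. The study's title concerns malonylation of acetyl-CoA carboxylase, a protein modification that RNA levels do not measure.

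Only 4 of the 11108 genes tested passed the test between the 2 groups, which is 0.0360% of them. With 4 libraries per group, a gene that did not pass is not thereby shown to be unchanged. Cfd was higher in ketogenic-alternating livers (0.00900% of genes tested), and Scd1, Cyp2c70 and Hamp2 were lower (0.0270%). The test was limma on log2(TPM + 1) with Benjamini-Hochberg adjustment over all genes tested. A gene passed when its adjusted p was under 0.05 and its level differed 2-fold or more. No further gene passed without the fold limit, and the next smallest adjusted p was 0.116, for Aldh3a2. Before adjustment, 1116 genes had a p below 0.05, 1012 of them higher and 104 lower. Most genes leaned one way: the median log2 fold change of all genes tested was 0.207 and 83% of genes lay above 0. When libraries were scaled by the median of gene ratios, the median was 0.00404 and 50.7% lay above 0. Medians of gene groups in this comparison are therefore given on both scales. Counts of genes whose groups did not overlap are to be read against the share of all genes tested: 6.30% higher and 0.549% lower on the deposited scale, and 1.61% higher and 2.14% lower after scaling. Leaving out 1 library at a time gave from 2 to 21 genes: 2 (Scd1 and Cyp2c70) when high-fat replicate 1 or 2 was left out, and 21 when high-fat replicate 3 was. Leaving out high-fat replicates 1 and 2 together gave 3 genes, among them Scd1 and Cyp2c70. Leaving out ketogenic-alternating replicate 1 gave 5, the 4 genes and Cyp2b9. In the plot of fold change against level, Scd1 lies farthest from 0.

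**Figure D1:**
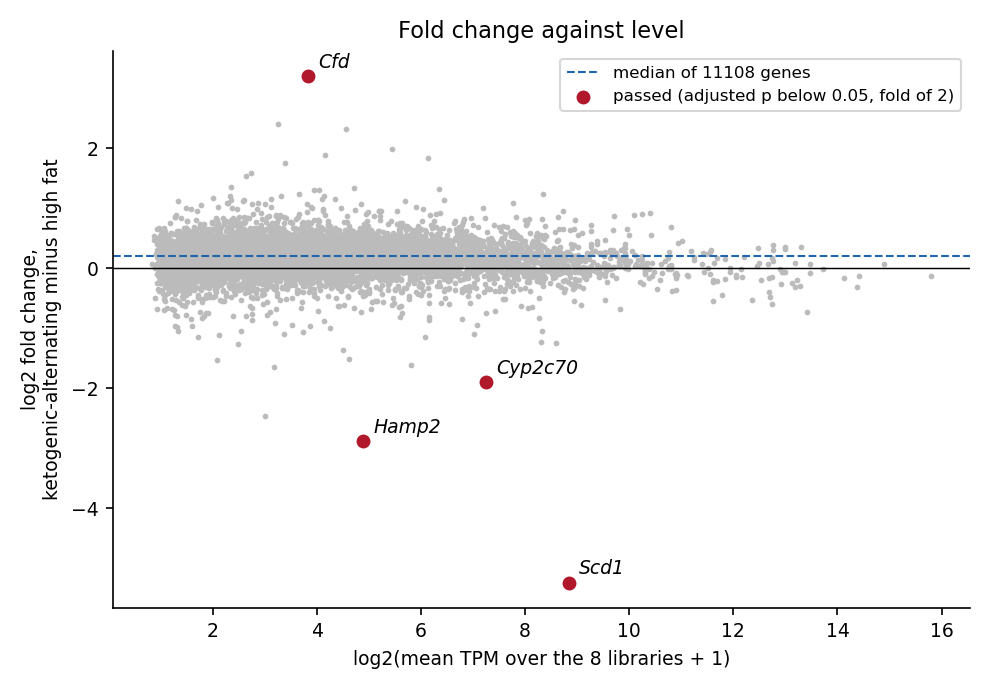
Each point is 1 of the 11108 genes tested, with its mean level over the 8 libraries as log2(TPM + 1) on the x axis and its log2 fold change (ketogenic-alternating minus high fat) on the y axis. Red points are the 4 genes that passed, and the dashed line marks the median of all genes, 0.207.

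Scd1 (ENSMUSG00000037071, chromosome 19, 44394455 to 44407879 on GRCm38) encodes stearoyl-CoA desaturase, the enzyme that turns saturated into monounsaturated fatty acids. Its level was 66.7, 11.0, 19.7 and 15.8 TPM in the ketogenic-alternating libraries and 716, 1150, 907 and 771 TPM in the high-fat libraries. Every ketogenic-alternating library lay far below every high-fat library, although replicate 1 of the ketogenic-alternating group was well above the other 3. The group means were 28.3 ± 25.8 TPM (SD, n = 4) and 886 ± 193 TPM, 31.3-fold apart. The log2 fold change was -5.24 (SE 0.421, limma adjusted p = 0.000505), and it was -5.76 without ketogenic-alternating replicate 1. Chow-alternating livers held 1040 ± 363 TPM and chow livers 1890 ± 863 TPM, so the ketogenic-alternating libraries were also below all libraries of the groups that ate chow.

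The other genes of this step did not pass. Of 15 tested genes of fatty acid desaturation and elongation, Scd1 was the only one that passed. Scd2, a second stearoyl-CoA desaturase, was at 1.88 ± 1.12 TPM in ketogenic-alternating and 2.00 ± 1.11 TPM in high-fat livers (log2 fold change -0.06, adjusted p = 0.911). Elovl6, which lengthens palmitate, was at 12.2 ± 3.73 and 12.8 ± 3.98 TPM (-0.06, adjusted p = 0.900). Elovl3, an elongase of saturated and monounsaturated fatty acids, was at 57.0, 102, 87.7 and 59.8 TPM against 173, 198, 121 and 78.4 TPM. Its groups overlapped through high-fat replicate 4, and the difference of -0.84 did not pass (adjusted p = 0.486). A pair of genes of polyunsaturated fatty acid synthesis had fold changes above 0 without passing: Fads2, a desaturase, with 0.85 (interval -0.02 to 1.72), and Elovl2, an elongase, with 0.83 (interval 0.28 to 1.37), both at an adjusted p of 0.486. The value of Fads2 was 0.43 with high-fat replicate 1 left out. With high-fat replicates 1 and 2 both left out it was 0.11, that of Elovl2 was 0.53 and that of Elovl3 was -0.39. Intervals here and below are unadjusted and cover 95%.

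Cyp2c70 (ENSMUSG00000060613, chromosome 19, 40153353 to 40187333 on GRCm38) encodes a P450 enzyme that makes muricholic acids, the bile acids typical of mice. Its level was 67.9, 47.3, 79.7 and 58.4 TPM in ketogenic-alternating livers and 180, 297, 228 and 249 TPM in high-fat livers. The highest ketogenic-alternating library was below the lowest high-fat library. The means of 63.3 ± 13.8 and 239 ± 48.2 TPM gave a log2 fold change of -1.90 (SE 0.195, limma adjusted p = 0.00343). Chow-alternating livers were at 283 ± 34.0 TPM and chow livers at 182 ± 50.8 TPM. Other genes of bile acid synthesis did not pass: of 15 tested, Cyp2c70 was the only one, and the median log2 fold change of the 15 was 0.0415, or -0.193 after scaling. Cyp7a1, the enzyme that starts the classical pathway, had a log2 fold change of 0.52, the highest of the 15. Cyp8b1, which directs synthesis to cholic acid, had 0.36. On the deposited scale 2 of the 15 were apart and higher, against 6.30% of all genes, and 1 lower, against 0.549%. After scaling none was apart and higher and 5 were lower, against 2.14% of all genes.

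The 250 bases before the RefSeq start of Cyp2c70 (GRCm38.p6, chr19:40187287-40187536, minus strand), are shown because Cyp2c70 is a called gene of known position, and the capitals mark AGGTCA, the half-site that many nuclear receptors of lipid metabolism bind.
Cyp2c70: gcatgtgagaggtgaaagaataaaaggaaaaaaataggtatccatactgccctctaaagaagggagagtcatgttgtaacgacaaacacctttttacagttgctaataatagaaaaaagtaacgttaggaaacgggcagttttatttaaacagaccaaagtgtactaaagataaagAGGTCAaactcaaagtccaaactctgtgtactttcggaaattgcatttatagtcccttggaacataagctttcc
AGGTCA, searched on both strands, occurs in 14.0% of the 32851 upstream windows of 250 bases. It occurs in none of those of Cfd, Hamp and Hamp2. A match is a run of letters and was not tested as a binding site.

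Cyp2c70 lies in a row of Cyp2c genes on chromosome 19, and 12 of the 15 Cyp2c genes of the table were tested. Cyp2c70 alone passed. The groups did not overlap for 4 of the 12, all lower in ketogenic-alternating livers, where 0.549% of all genes tested were lower without overlap. They were Cyp2c70, Cyp2c40, Cyp2c67 and Cyp2c44. Cyp2c44 lies away from the others on chromosome 19: it starts at 44005022, and they start from 39608842 to 40153353. Cyp2c40, an enzyme of arachidonic acid oxidation, was at 9.42, 10.8, 12.9 and 11.8 TPM against 30.4, 45.1, 16.8 and 35.4 TPM (log2 fold change -1.35, adjusted p = 0.198). Cyp2c67 was at 220 ± 26.7 against 396 ± 79.9 TPM (-0.83, adjusted p = 0.261). Cyp2c69 had the second most negative fold change of the 12, -1.64, from 3.29 ± 1.81 against 12.9 ± 6.78 TPM, with groups that just overlapped (adjusted p = 0.323). In all, 10 of the 12 had a fold change below 0. Cyp2c29 and Cyp2c68 were at -0.35 and -0.38, Cyp2c37, Cyp2c50 and Cyp2c54 lay between -0.15 and -0.07, and Cyp2c38 and Cyp2c39 were above 0 at 0.52 and 0.58. The median of the 12 was -0.367, and -0.604 after scaling. The list was drawn up by gene symbol after the values were seen, and Cyp2c70 itself is counted in it. These genes are near-identical in parts, so the division of reads between them is an estimate.

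**Figure D2:**
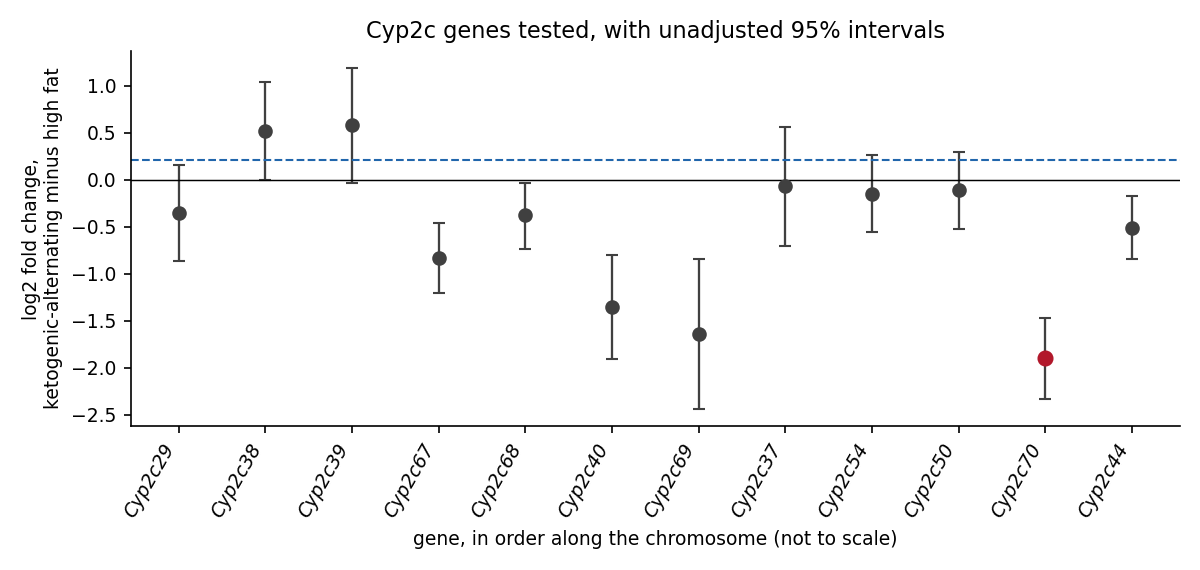
Log2 fold changes (ketogenic-alternating minus high fat) of the 12 tested Cyp2c genes with unadjusted 95% intervals, in order along the chromosome but not to scale. The red point, Cyp2c70, is the only one that passed, and the dashed line is the median of all genes tested.

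Cfd (ENSMUSG00000061780, chromosome 10, 79890853 to 79892655 on GRCm38) encodes complement factor D, also called adipsin, a serine protease of the alternative complement pathway that fat cells secrete in large amounts. Its level was 12.8, 16.1, 42.0 and 27.5 TPM in ketogenic-alternating livers and 1.88, 0.723, 0.848 and 3.34 TPM in high-fat livers. All 4 ketogenic-alternating libraries were above all 4 high-fat libraries, and the means were 24.6 ± 13.2 and 1.70 ± 1.21 TPM. The log2 fold change was 3.21 (SE 0.375, limma adjusted p = 0.0088). The adjusted p was 0.0603 without high-fat replicate 1, 0.0759 without high-fat replicate 2 and 0.283 without both, with log2 fold changes of 3.27, 3.03 and 3.03. In chow-alternating livers Cfd was at 0 to 1.33 TPM and in chow livers at 0 to 0.447 TPM.

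Because Cfd is a fat cell marker, the other 6 fat cell markers of the list were read beside it. The summed level of the 7 was 61.7 to 110 TPM in ketogenic-alternating and 15.6 to 36.9 TPM in high-fat livers. Adipoq (adiponectin), Plin1, Lep (leptin) and Retn were at or near 0 in all 16 libraries: the highest value was 0.921 TPM, of Adipoq in high-fat replicate 1, and Lep was listed at 0 throughout. Fabp4 was at 13.6 ± 8.75 TPM in ketogenic-alternating and 13.4 ± 6.76 TPM in high-fat livers (log2 fold change -0.03). Cidec, a protein that enlarges lipid droplets in fat cells and in fatty liver, was at 70.9, 35.9, 21.3 and 26.2 TPM against 3.64, 4.42, 12.9 and 6.35 TPM. Its groups did not overlap and its log2 fold change was 2.32, but it did not pass (adjusted p = 0.124). It was 1.98 without ketogenic-alternating replicate 1, which had the highest value. Of the 3 fat cell markers tested, Cfd and Cidec were apart and higher, where 6.30% of all genes tested were, and Fabp4 was not. The part of fat cells in these differences was not tested beyond these values. The 2 main Cidec transcripts made up 59.0% ± 13.4 and 39.6% ± 14.1 of the gene in ketogenic-alternating livers and 52.2% ± 22.1 and 39.7% ± 29.1 in high-fat livers (SD, n = 4; exact two-sided permutation p = 0.629 and 1.0), a comparison added after the values were seen.

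Hamp2 (ENSMUSG00000056978, chromosome 7, 30922372 to 30924681 on GRCm38) is a copy of the gene for hepcidin, the liver hormone that limits iron release into blood. Its level was 7.39, 2.54, 5.03 and 7.91 TPM in ketogenic-alternating livers and 27.1, 71.9, 80.6 and 27.3 TPM in high-fat livers. The groups did not overlap, and the means of 5.72 ± 2.46 and 51.7 ± 28.5 TPM gave a log2 fold change of -2.88 (SE 0.396, limma adjusted p = 0.0322). Hamp2 missed the threshold when 1 of 4 libraries was left out: the adjusted p was 0.0912 and 0.0978 without ketogenic-alternating replicate 2 or 3, and 0.0603 and 0.189 without high-fat replicate 1 or 2. Without both high-fat replicates 1 and 2 it was 0.283. Chow-alternating livers held 68.7 ± 33.5 TPM and chow livers 209 ± 154 TPM.

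Hamp itself, the gene for hepcidin, did not follow its copy. It was at 1380, 304, 1320 and 818 TPM in ketogenic-alternating livers and at 369, 568, 989 and 1070 TPM in high-fat livers, with broad overlap. Its log2 fold change was 0.26 (interval -0.76 to 1.27, adjusted p = 0.774), 0.02 after scaling. Their main transcripts start 19851 bases apart. These transcripts, of 410 and 420 bases, differ by 31 single-base edits (92.6% identity), so the authors' estimate of how reads divide between them is uncertain.

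The upstream windows of this pair are shown because 1 copy passed and the other did not. They are the 250 bases before each RefSeq start (GRCm38.p6), both on the minus strand, at chr7:30944030-30944279 for Hamp and chr7:30924182-30924431 for Hamp2, and the capitals mark bases that differ from the other copy or have no partner in it.
Hamp: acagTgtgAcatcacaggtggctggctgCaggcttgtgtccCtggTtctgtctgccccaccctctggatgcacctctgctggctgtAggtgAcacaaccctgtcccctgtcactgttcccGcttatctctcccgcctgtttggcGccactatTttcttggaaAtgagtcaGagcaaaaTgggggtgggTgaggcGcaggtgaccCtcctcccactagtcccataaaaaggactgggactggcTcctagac
Hamp2: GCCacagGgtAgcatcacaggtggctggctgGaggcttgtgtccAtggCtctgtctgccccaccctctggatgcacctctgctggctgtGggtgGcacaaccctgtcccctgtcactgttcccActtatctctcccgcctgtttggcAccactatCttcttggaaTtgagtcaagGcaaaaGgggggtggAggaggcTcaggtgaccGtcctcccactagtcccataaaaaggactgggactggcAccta
With the first 50 transcribed bases included, the windows of 300 bases differ by 27 edits. Motifs were searched in the 250 upstream bases only. GGCGCC, the core that SMAD proteins of the BMP signal can bind, is in those of Hamp and not in those of Hamp2. Of all upstream windows, 9.59% hold it on either strand. TGAGTCA, a site of AP-1 factors, is in both upstream windows and in 4.46% of all. No binding was measured.

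Among 18 tested genes of iron, zinc and metal binding, Hamp2 was the only one that passed. Slc39a4, a zinc importer, was at 32.9, 19.2, 17.1 and 15.7 TPM against 6.57, 6.48, 11.1 and 6.94 TPM, higher without overlap, and did not pass (log2 fold change 1.31, adjusted p = 0.198). Id1 and Smad7, targets of the BMP signal that controls hepcidin, were higher without overlap at 0.90 and 0.53 and did not pass. In all, 3 of the 18 were apart and higher, against 6.30% of all genes, and 1 lower, against 0.549%. After scaling 3 were apart and higher, against 1.61%, and 2 lower, against 2.14%. The metallothioneins Mt1 and Mt2 had fold changes of -1.23 and -0.94 with overlapping groups.

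**Figure D3:**
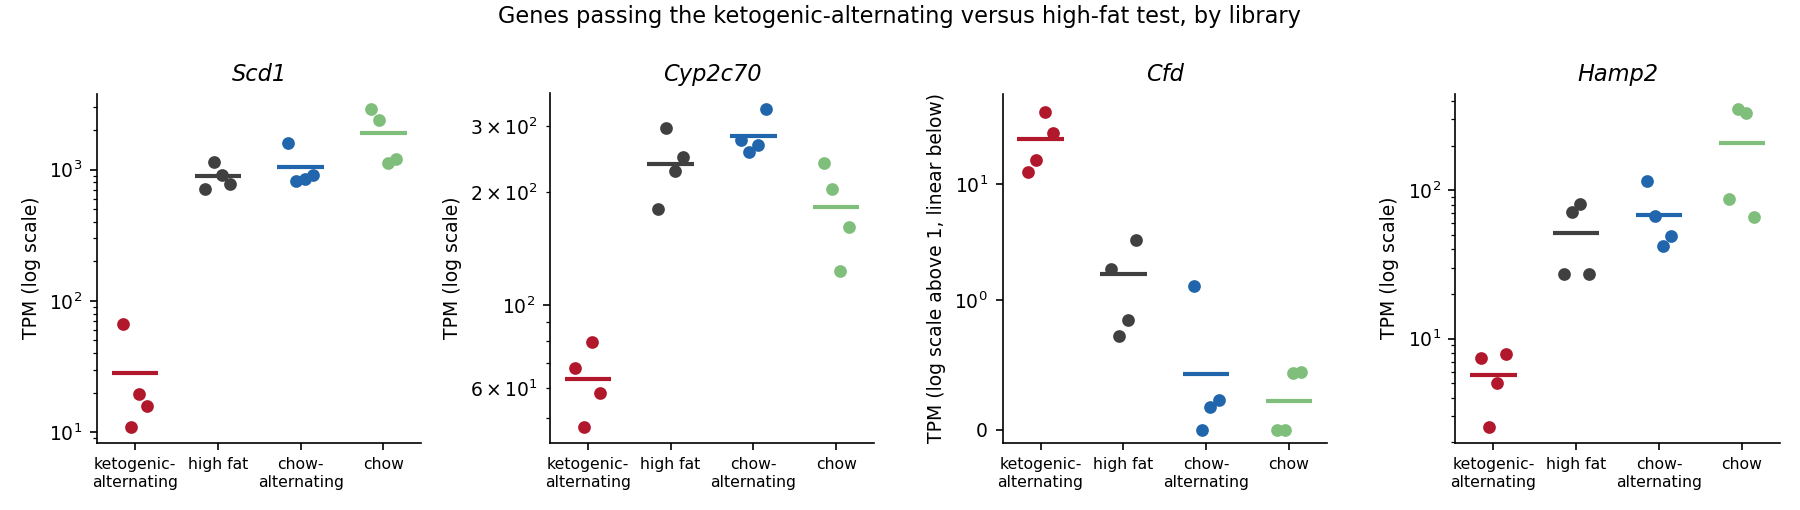
TPM of the 4 genes that passed, each point 1 library and each bar the mean of 4 libraries, on log axes (linear below 1 TPM for Cfd). For each of the 4 genes, the ketogenic-alternating libraries lie wholly on 1 side of the libraries of the other 3 groups.

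Of the genes closest to the study's question, those of fat synthesis did not pass. Acaca, which encodes the acetyl-CoA carboxylase named in the study's title, was at 9.61, 13.4, 13.3 and 10.6 TPM in ketogenic-alternating livers and 6.54, 10, 15.2 and 15.5 TPM in high-fat livers. The 4 ketogenic-alternating values lay inside the high-fat range. The log2 fold change was 0.05 (interval -0.50 to 0.59, limma adjusted p = 0.925), and -0.17 after scaling. Acacb, the carboxylase at the mitochondrial surface, was at 5.02 ± 1.33 against 6.63 ± 2.10 TPM (-0.33, interval -0.86 to 0.21; -0.66 without high-fat replicates 1 and 2, and from -0.51 to -0.17 with 1 library left out). Fasn, fatty acid synthase, was at 18.7, 50.3, 46.5 and 45.2 TPM against 32.2, 46.1, 40.8 and 57.8 TPM (-0.20, interval -0.83 to 0.44). Its lowest value was that of the library with the highest Scd1 of the ketogenic-alternating group. Srebf1, the insulin-driven activator of these genes, was at 71.4 ± 11.2 against 73.0 ± 30.4 TPM (0.05, interval -0.53 to 0.64).

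Of 19 tested genes of fatty acid synthesis and its regulators none passed limma's adjusted threshold, and the only gene whose groups did not overlap was Mlxipl. It was lower, where 0.549% of all genes tested were lower without overlap, and after scaling 0 of the 19 were apart. Mlxipl encodes the carbohydrate-sensing activator ChREBP and was at 72.3, 56.2, 74.0 and 85.7 TPM against 109, 94.4, 85.7 and 119 TPM (log2 fold change -0.50, adjusted p = 0.486). Ketogenic-alternating replicate 4 and high-fat replicate 3 have the same value to 3 digits. The median of the 19 was 0.0529, and -0.167 after scaling, below the median of all genes on either scale. Without high-fat replicates 1 and 2 it was -0.199 against 0.0398 for all genes, and 4 of the 19 were lower without overlap against 3.71% of all genes. Without ketogenic-alternating replicate 1 the median was 0.158 against 0.159 for all genes. In that setting 2 of the 19 were higher without overlap, against 7.76% of all genes, and 1 lower, against 1.31%.

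Among the 7 genes that make, remove or use malonyl-CoA or take malonyl groups off proteins, none passed, and 3 were higher without overlap, where 6.30% of all genes tested were higher without overlap. These were Mlycd, Mcat and Acsf3. Mlycd, the decarboxylase that removes malonyl-CoA, was at 104, 103, 99.7 and 106 TPM against 81.7, 60.5, 93.8 and 94.8 TPM (0.34, interval -0.01 to 0.69, and 0.10 after scaling), and the difference was 0.20 without high-fat replicate 2. Acsf3, which makes malonyl-CoA inside mitochondria, was at 32.2 ± 3.69 against 22.0 ± 5.37 TPM (0.55, adjusted p = 0.486). Sirt5, the mitochondrial enzyme that takes malonyl and succinyl groups off lysines, was at 18.6, 19.3, 19.3 and 20.3 TPM against 19, 12.8, 18.8 and 17 TPM (0.20, interval -0.15 to 0.55, and -0.02 after scaling). After scaling, none of the 7 had groups apart and their median moved from 0.203 to -0.0224, while that of all genes moved from 0.207 to 0.00404.

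The 2 main Acaca transcripts divided the gene unevenly between the groups, without passing. ENSMUST00000103201, of 9513 bases, made up 8.98, 0, 57.9 and 20.1% of Acaca in ketogenic-alternating livers and 98.2, 98.1, 52.5 and 59.7% in high-fat livers. ENSMUST00000020843, of 9026 bases, made up 82.1, 87.0, 32.8 and 77.6% against 0, 0, 37.3 and 29.3%. The groups overlapped through ketogenic-alternating replicate 3, which lay among the high-fat libraries for both transcripts. The means of the longer transcript were 21.7% ± 25.5 and 77.1% ± 24.5 (SD, n = 4; exact two-sided permutation p = 0.0571, adjusted p = 0.257 over 9 transcripts of 4 genes). No share of the 9 transcripts passed, but the smallest p that 4 against 4 libraries allow is 0.0286, so a pass would have needed at least 6 of the 9 to reach it. Without ketogenic-alternating replicate 3, the overlapping library, 2 transcripts had an exact permutation p of 0.0286 and the smallest adjusted p was 0.129. Leaving out that library sets the groups apart, so this run adds no support. With any other library left out, no transcript had an exact permutation p below 0.05. The smallest adjusted p of those runs was from 0.2 to 0.514. Levels of the 2 main Acaca transcripts are estimates from reads that both share, and each was below 12 TPM.

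Genes of fat oxidation lay above the median of all genes, and none of them passed. All 20 tested genes of mitochondrial fatty acid oxidation had a log2 fold change above 0, with a median of 0.453 against 0.207 for all genes. In 12 of the 20 the ketogenic-alternating libraries were all above the high-fat libraries, where 6.30% of all genes tested were. After scaling the median was 0.217 against 0.00404, and 4 of 20 were apart against 1.61% of all genes. Without high-fat replicates 1 and 2, a setting chosen for the lists after seeing the data, 12 of 20 were apart against 9.74% of all genes, and the median difference was 0.291 against 0.0398. Without ketogenic-alternating replicate 1, also chosen after seeing the data, 16 of 20 were apart against 7.76% of all genes, and the median was 0.487 against 0.159. Members from several steps of the pathway were apart. Slc22a5, which imports carnitine, was at 26.8, 26.2, 28.1 and 30.5 TPM against 9.25, 11.3, 14.8 and 20.8 TPM (1.00, SE 0.216, adjusted p = 0.296; 0.64 without high-fat replicates 1 and 2). Cpt1a, the gate for fatty acids into mitochondria, was at 350, 278, 281 and 235 TPM against 95.1, 131, 274 and 171 TPM, and its groups overlapped through high-fat replicate 3 (0.86, adjusted p = 0.486; 0.39 without high-fat replicates 1 and 2). Acadm, medium-chain acyl-CoA dehydrogenase, was at 564 ± 60.2 against 362 ± 52.6 TPM (0.64, adjusted p = 0.331).

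In peroxisomes, which shorten very long fatty acids, all 17 tested genes were above 0, with a median of 0.461 (0.244 after scaling). The groups were apart in 3 of the 17, against 6.30% of all genes, and in 0 of the 17 after scaling, with Crat, carnitine acetyltransferase, the farthest at 0.95. Of 23 genes in the list of PPAR alpha and its other targets, 5 were apart and higher, against 6.30% of all genes, and 3 were after scaling, against 1.61%. The median was 0.50 (0.263 after scaling). Members ranged from -0.87 for Cyp4a12b to 2.32 for Cidec. Vnn1, a pantetheinase, was at 84.2 ± 18.1 against 45 ± 21.5 TPM (0.99, adjusted p = 0.486). Pdk4, which spares pyruvate in fasting, had -0.19. Fgf21, a fasting hormone of the liver, was at 68.1, 37.8, 9.65 and 34.9 TPM against 8.12, 20.4, 14.8 and 7 TPM. Ketogenic-alternating replicate 3 lay inside the high-fat range, and the difference of 1.34 (interval 0.27 to 2.42) did not pass (adjusted p = 0.486). It was 0.97 without ketogenic-alternating replicate 1, which had the highest value.

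Of 10 tested genes of ketone body metabolism none passed and 9 lay above 0. Bdh1, which turns acetoacetate into another ketone body, was at 314, 337, 305 and 337 TPM against 165, 157, 237 and 187 TPM. All its ketogenic-alternating libraries were above (0.81, SE 0.153, adjusted p = 0.198). Bdh2, a related dehydrogenase, was at 8.97, 7.26, 12.5 and 9.85 TPM against 16.4, 13.9, 13.2 and 14.4 TPM and was lower without overlap (-0.56, adjusted p = 0.486). Over the 10 genes the median was 0.351 (0.12 after scaling). On the deposited scale 2 were apart and higher, against 6.30% of all genes, and 1 was apart and lower, against 0.549%. After scaling 1 was apart in each direction.

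Lipid droplet proteins and fatty acid uptake had the second highest median of the pathway lists, 0.622 (0.385 after scaling), after the circadian list. Of 21 tested genes only Cfd passed, a secreted protease that was counted in this list, and no other member did. In all, 8 were apart and higher, Cfd among them, against 6.30% of all genes. After scaling 4 were apart and higher, against 1.61%, and 1 lower, against 2.14%. Cd36, a fatty acid transporter at the cell surface, was at 86.7, 80.4, 91.7 and 55.6 TPM against 21.7, 41.5, 46.0 and 47.8 TPM (1.02, adjusted p = 0.331). Pparg, the fat-cell regulator that also drives lipid storage in fatty liver, was at 15, 12.2, 11.9 and 11.0 TPM against 4.49, 9.31, 5.18 and 8.13 TPM (0.84, adjusted p = 0.368). Plin2, which coats lipid droplets, was at 596, 573, 552 and 652 TPM against 265, 434, 407 and 420 TPM (0.66, adjusted p = 0.368). In each of these 3 the groups were apart. Fabp5, a fatty acid binding protein, had the lowest fold change of the list, -0.67. Aldh3a2, which oxidises fatty aldehydes and came closest to the threshold, was at 420, 495, 419 and 482 TPM against 135, 195, 176 and 281 TPM (1.25, SE 0.201, adjusted p = 0.116).

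**Figure D4:**
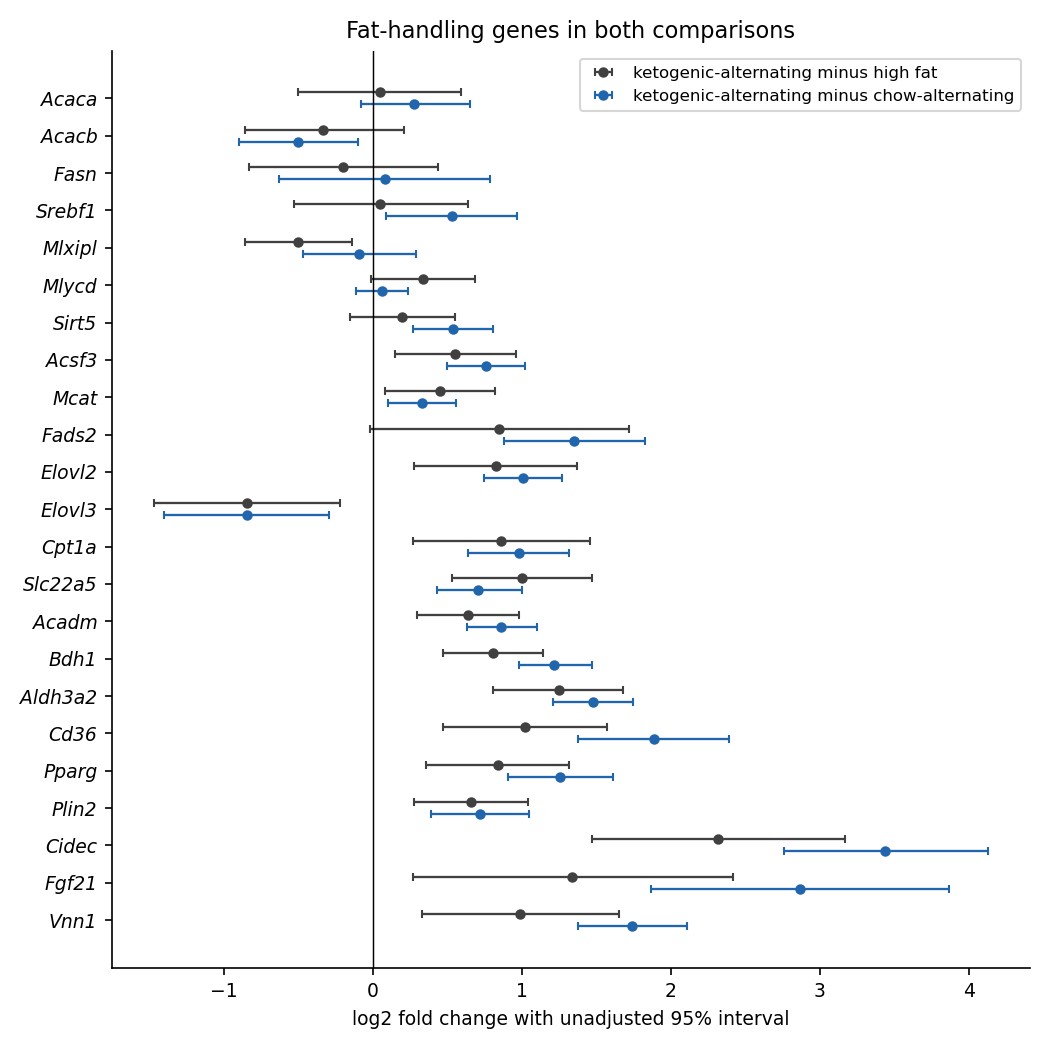
Log2 fold changes with unadjusted 95% intervals of genes of fat synthesis, oxidation, ketone formation and storage, for ketogenic-alternating minus high fat (grey) and ketogenic-alternating minus chow-alternating (blue). Acaca, Fasn and Srebf1 lie near 0 against high fat, and Cidec and Fgf21 lie farthest to the right in both.

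Secreted plasma proteins lay toward the low end, below the median of all genes on both scales. The 12 hepatocyte markers, several of them secreted, had a median of -0.0594 (-0.298 after scaling), and their part in these lists was not tested. The median of 25 acute phase proteins was -0.0661 (-0.304 after scaling), and 3 were apart and lower on either scale, against 0.549% and 2.14% of all genes. Without ketogenic-alternating replicate 1 there were 8, against 1.31% of all genes. Orm1, an acid glycoprotein of plasma, was at 942, 588, 769 and 525 TPM against 1280, 1040, 957 and 1130 TPM (-0.67, adjusted p = 0.444), and Serpina3k, a protease inhibitor, was at 5450 ± 586 against 8260 ± 1470 TPM (-0.59, adjusted p = 0.486). The median of 28 complement and coagulation genes was -0.0488 (-0.286 after scaling). Only Kng1, the kininogen gene, was apart on the deposited scale, against 10 of the 28 after scaling, where 2.14% of all genes were lower without overlap. Cfd, the complement gene that passed and was higher (3.21), is not on this list. Cyp2f2 and Cyp2d22, P450 enzymes of hepatocytes, were lower without overlap at -0.52 and -0.46 (adjusted p = 0.378 and 0.369). Cyp2b9, another P450 enzyme, ran from 1.80 to 35.2 TPM against 0.663 to 2.17 TPM and overlapped through ketogenic-alternating replicate 1 (2.41, adjusted p = 0.331).

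The circadian list, of 19 genes, had the highest median, 0.625 (0.397 after scaling), from wide spreads: Dbp, a clock output factor, was at 63.6, 50.3, 78.8 and 167 TPM against 14.2, 3.61, 24.5 and 149 TPM. Cry1, a clock repressor, was lower without overlap (1.59 ± 0.325 against 3.51 ± 0.608 TPM, -0.80, adjusted p = 0.329), and Nr1d1, which represses Arntl, was higher without overlap (63.2 ± 7.20 against 40.3 ± 6.57 TPM, 0.64, adjusted p = 0.331). Of the 19, 1 was apart and higher, against 6.30% of all genes, and 1 lower, against 0.549%. After scaling 0 were apart and higher, against 1.61%, and 2 lower, against 2.14%. Without high-fat replicates 1 and 2 the median of the list was 0.00489. The hour of collection is not given in the sources used here. All 25 genes of cholesterol synthesis and SREBP2 control lay above 0, as did 83% of all genes, and 21 did after scaling. Their median was 0.449 (0.215 after scaling). Hsd17b7, a sterol reductase, and Srebf2, the pathway's activator, were the 2 that were apart, a share near the 6.30% of all genes, and none was after scaling. Without ketogenic-alternating replicate 1 there were 11 of 25, against 7.76% of all genes, and the median was 0.699 against 0.159. The plot of list medians shows these positions.

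**Figure D5:**
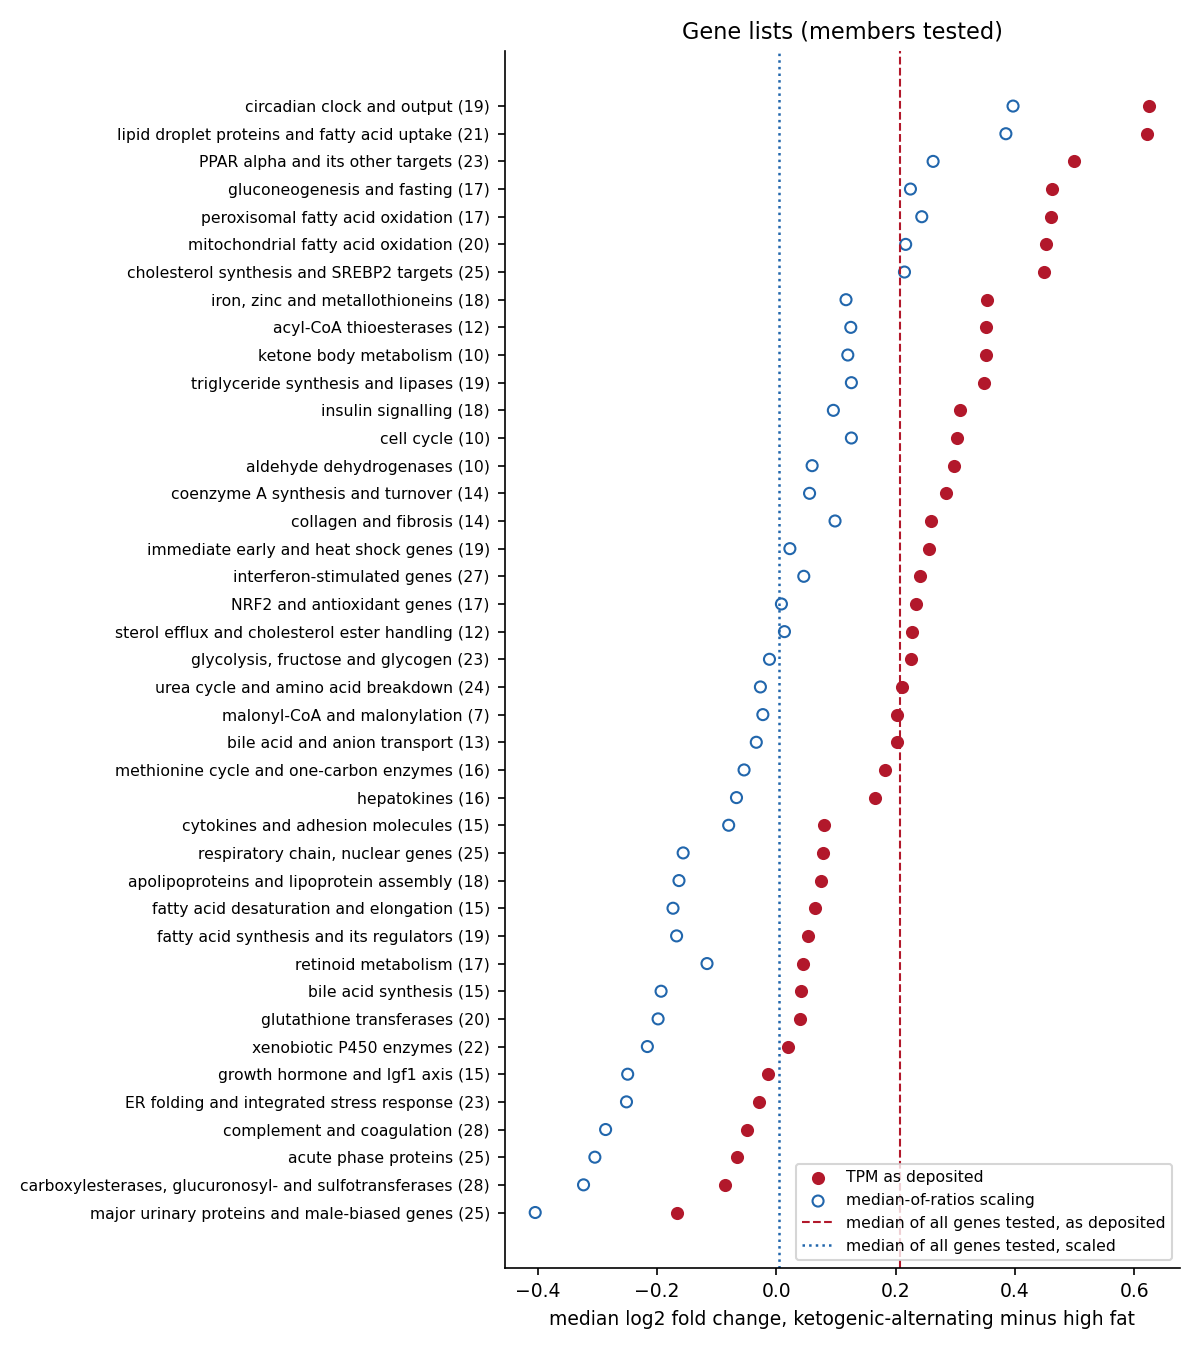
Median log2 fold change (ketogenic-alternating minus high fat) of each pathway list, with the number of members tested, on deposited TPM (filled) and after median-of-ratios scaling (open). Vertical lines mark the medians of all genes tested, 0.207 and 0.00404. Lists of fat oxidation and storage lie right of the lines and secreted plasma proteins left of them.

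Markers of other cell types were read for shifts in the tissue's makeup. No marker of Kupffer cells (13 tested), stellate cells (12) or neutrophils (3) passed or had groups apart. Their medians were 0.352, 0.319 and 0.143 (0.131, 0.106 and -0.0232 after scaling). Of 12 sinusoidal endothelial markers 2 were apart and higher, against 6.30% of all genes, and none after scaling, with a median of 0.398 (0.188 after scaling). The 5 tested markers of B and plasma cells had a median of -0.475 (-0.638 after scaling). Of the 5, 1, Igkc, was apart and lower, against 0.549% of all genes, and 2 were after scaling, against 2.14%. The 7 tested markers of recruited and lipid-associated macrophages had a median of 0.185 (-0.0506 after scaling), and -0.226 without ketogenic-alternating replicate 1. Medians were -0.169 for 4 markers of T and NK cells and -0.324 for 6 of red blood cells (-0.319 and -0.561 after scaling). Hba-a2 of the latter was apart and lower, against 0.549% of all genes. After scaling 1 marker of each of these 2 lists was apart and lower, against 2.14%. The 7 tested cholangiocyte markers had a median of 0.199 (-0.0383 after scaling) and ran from -1.51, for Tff3, to 1.76. Krt23, a keratin also seen in stressed hepatocytes, was apart and higher at 20.3, 12.7, 8.77 and 18.3 TPM against 2.10, 2.27, 7.62 and 3.76 TPM (1.76, adjusted p = 0.198, and 1.60 without ketogenic-alternating replicate 1). On either scale 1 of the 7 was apart and higher, against 6.30% of all genes and 1.61% after scaling. Sox9 and Spp1 had 0.10 and 0.15 (-0.07 and -0.08 after scaling). The part of these cells in the results above was not tested.

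The ketogenic-alternating livers were also set directly against the chow-alternating livers, which asks what differs with the diet eaten in the intervals. This keeps the ketogenic-alternating libraries and replaces the high-fat ones. Of 11002 genes tested with limma, 554 had an adjusted p below 0.05 (5.04%), 474 of them higher (4.31%) and 80 lower (0.727%). Of these, 86 also reached a fold change of 2 (0.782%), 68 higher (0.618%) and 18 lower (0.164%). After median-of-ratios scaling the 554 became 306, 129 higher and 177 lower, and the 86 became 74, 39 higher and 35 lower, so the split by direction depends on the scale. Single libraries moved the counts: the 554 became 2513 without ketogenic-alternating replicate 4 and between 162 and 341 without any other 1 of the 8. The 86 became 174 without ketogenic-alternating replicate 4, 57 without ketogenic-alternating replicate 2 and 52 without chow-alternating replicate 2. The median SD of log2 levels in the chow-alternating group was 0.166, smaller than the 0.321 of the high-fat group.

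All 4 genes that passed against high fat also passed against chow-alternating. The log2 differences were -5.44 for Scd1 (adjusted p = 0.000327), -2.16 for Cyp2c70 (0.000141), 4.10 for Cfd (0.000358) and -3.35 for Hamp2 (0.000924). Both comparisons use the same ketogenic-alternating libraries. Against chow-alternating livers 13 of 20 genes of mitochondrial fat oxidation were higher at an adjusted p below 0.05, where 4.31% of all genes tested were. The 13 became 3 after median-of-ratios scaling, where 1.17% of all genes were higher. With all 16 libraries in 1 fit they became 3, where 0.736% were. Without ketogenic-alternating replicate 2 they became 7, where 1.21% were. Cpt1a was among the 13 (0.98, adjusted p = 0.00914), as were Acadm (0.86, adjusted p = 0.00329) and Slc22a5 (0.71, adjusted p = 0.015, but 0.078 after scaling). In the list of lipid droplet and uptake genes 10 of 21 were higher, Cfd among them, against 4.31% of all genes. After scaling 7 were, against 1.17%. The 10 became 6 without ketogenic-alternating replicate 2 or chow-alternating replicate 2, against 1.21% and 1.27% of all genes. Slc27a5 was lower, a call kept under 4 of 13 alternatives. Cidec differed by 3.44 (adjusted p = 0.00037), Cd36 by 1.89 (adjusted p = 0.00294) and Fabp2, the intestinal-type fatty acid binding protein, by 1.54 (adjusted p = 0.000328). Of 10 ketone body genes 4 were higher, against 4.31% of all genes, and Bdh2 was lower, against 0.727%. After scaling 1 was higher, against 1.17%, and 1 lower, against 1.61%. The 4 became 1 without ketogenic-alternating replicate 2, against 1.21% of all genes. They became 2 without chow-alternating replicate 2 or 3, against 1.27% and 1.58%. Fgf21 was higher by 2.87 (adjusted p = 0.0089), with chow-alternating values of 2.58 to 4.89 TPM. Aldh3a2 was higher by 1.48 (adjusted p = 0.000327).

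The malonyl-CoA genes differed in part from chow-alternating livers. Sirt5 was higher by 0.54 (interval 0.27 to 0.81, adjusted p = 0.0326) and Acsf3 by 0.76 (adjusted p = 0.00848). The call of Acsf3 held under all 13 alternatives run. That of Sirt5 held under 4 of them, with log2 differences from 0.35 to 0.65, and was lost after scaling (0.35, adjusted p = 0.147) and without 6 of the 8 libraries left out in turn. Acaca (0.28, interval -0.08 to 0.65), Acacb (-0.50), Fasn (0.08) and Mlycd (0.06) did not pass. Fads2 and Elovl2, of polyunsaturated fatty acid synthesis, were higher by 1.35 and 1.01 (adjusted p = 0.00914 and 0.00264). Interferon-stimulated genes had 12 of 27 members higher than in chow-alternating livers, such as Usp18 (1.40) and Isg15 (1.21), against 4.31% of all genes. After scaling 10 were, against 1.17%, and without ketogenic-alternating replicate 4 there were 20, against 21.4%. Against high fat none passed, and the median was 0.241 (0.0462 after scaling). Whether the 2 comparisons differ was not tested. Of 22 genes of protein folding in the endoplasmic reticulum and the integrated stress response, 6 were lower than in chow-alternating livers, against 0.727% of all genes, Manf (-1.23) and the chaperone gene Hspa5 (-0.92) among them. The 6 became 2 without ketogenic-alternating replicate 2 or chow-alternating replicate 2 or 3, against 0.285%, 0.256% and 0.393% of all genes. They became 8 after median-of-ratios scaling, against 1.61%. Without ketogenic-alternating replicate 3 or chow-alternating replicate 4 they became 7, against 0.544% and 0.43%. Against high fat none of 23 passed, and the median was -0.0296 (-0.251 after scaling).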

How the data were processed

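The study sequenced RNA of 16 mouse liver samples, and the 8 ketogenic-alternating and high-fat libraries form the main comparison. Per the series' design text, reads were aligned with HISAT2 to mm10 and quantified as FPKM with RSEM 1.1.17 on Ensembl release 96, and the authors used edgeR 3.14.0. Each sample column of the deposited tables, by gene and by transcript, sums to 1000000, so the values are TPM; the step between is not given in the sources used here. TPM keeps no depth, so none is known and no count test was run; the test planned for FPKM was applied to TPM. Log2(deposited TPM + 1) was fitted with limma 3.58.1 (R 4.3.3) with an intensity trend, keeping genes with at least 1 TPM in 4 libraries and no covariate. Adjustment was by Benjamini-Hochberg over all features tested. The script was tested on simulated data.

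Genes were named by a rule: the passing genes of largest change, at most 12 in each direction, up to 3 passing members of each list, 9 genes of the study's question and the passing genes of highest level, at most 8. It gave 12 genes; all others named were chosen after their values were seen. Members and lists were chosen with earlier results of these data known. Gene positions come from GENCODE vM21. Upstream sequences were matched by symbol in RefSeq for 4 of 5 genes looked up (none for Scd1), and compared with edlib 1.3.9.post1. Alternatives were other pseudocounts, filters, scalings, fits and left-out libraries. Some single-gene results are not reported here.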

Additional observations from a re-analysis of the deposited data

Results flagged for a closer look

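In 6 of 98 groups of 4 libraries checked (chance flags about 1 in 20), 1 library stood far from the other 3. Ketogenic-alternating replicate 1 had Scd1 at 66.7 TPM, the others 11.0 to 19.7 TPM, and Fasn at 18.7 TPM, the others 45.2 to 50.3 TPM. High-fat replicate 1 had Plin2 at 265 TPM (others 407 to 434) and Acadm at 284 TPM (others 384 to 395). High-fat replicate 3 had Slc39a4 at 11.1 TPM (others 6.48 to 6.94). High-fat replicate 4 had Nr1d1 at 50.1 TPM (others 36.2 to 38.1).

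In limma's direct test of ketogenic-alternating against chow-alternating livers, 5.04% of all genes tested had an adjusted p below 0.05. Of the 46 genes given with values, 34 were chosen after their values were seen, which raises their share. Of the 12 named by the rule, 7 passed that threshold, and of all 46 genes 32 did. Those higher by log2 differences over 1 were Cfd (4.10), Cidec (3.44), Fgf21 (2.87), Krt23 (2.80), Cyp2b9 (2.74), Cd36 (1.89), Vnn1 (1.74), Fabp2 (1.54), Aldh3a2 (1.48), Fads2 (1.35), Pparg (1.26), Bdh1 (1.22), Ucp2 (1.1) and Elovl2 (1.01). Smaller positive differences were those of Cpt1a (0.98), Acadm (0.86), Acsf3 (0.76), Fitm2 (0.74), Plin2 (0.72), Slc22a5 (0.71), Hacd3 (0.55) and Sirt5 (0.54). Lower were Scd1 (-5.44), Hamp2 (-3.35), Cyp2c70 (-2.16), Orm1 (-0.99), Bdh2 (-0.88), Cry1 (-0.87), Cyp2c40 (-0.75), Cyp2c44 (-0.70), Cyp2d22 (-0.56) and Cyp2f2 (-0.48).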

How the results depend on the processing

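Against high fat, 4 genes passed. The number was 12 with all 16 libraries in 1 fit, 8 with array weights, 1 (Scd1) with no filter, and 2 to 21 with 1 library left out. Against chow-alternating, 86 passed, and 52 to 174 with 1 library left out. Scd1 passed under all 20 alternatives, Cyp2c70 under 19 (not with no filter, adjusted p = 0.0591), Cfd under 16 and Hamp2 under 14, none changing sign. The direction of genes near 0 turned: Acaca was -0.02, -0.01, -0.19 and 0 without ketogenic-alternating replicate 2 or 3 or high-fat replicate 1 or 2, -0.17, -0.19 and -0.03 with median-of-ratios, quantile and nuclear-gene scaling, -0.11 with array weights and -0.38 without high-fat replicates 1 and 2. Srebf1 was -0.02, -0.08 and -0.16 without ketogenic-alternating replicate 3 or high-fat replicate 1 or 2, -0.18, -0.14 and -0.03 with those 3 scalings, -0.17 with array weights and -0.48 without high-fat replicates 1 and 2. Fasn was 0.12 without ketogenic-alternating replicate 1, Sirt5 was -0.02 with median-of-ratios and with quantile scaling, and Hamp was -0.04 without high-fat replicate 1, -0.39 with array weights and -0.33 without high-fat replicates 1 and 2. With 1 library left out, the highest value of Acaca was 0.19, of Srebf1 0.26 and of Hamp 0.73, and the lowest of Fasn was -0.34. The cause was not tested. Transcript shares gave 0 passing under each alternative, which with so few libraries says nothing about stability. Same-numbered ketogenic-alternating and high-fat libraries did not deviate together (r of -0.0661, 0.0334, 0.0143 and -0.0916 across genes). These values cannot exclude that the numbers pair libraries. The replicate block gave 5 genes against high fat (4 and Aldh3a2) and 76 against chow-alternating. Without the fold limit, the 554 genes against chow-alternating became 181 with the block, 107 with all 16 libraries in 1 fit, 306 with median-of-ratios scaling and 162 to 2513 with 1 library left out. TPM gives no depth, so low genes have no counting interval.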
